A study of Schizosaccharomyces pombe with 4 samples.

Results

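Enzymes that remove reactive oxygen species and keep protein thiols reduced were described by the transcripts of 10 antioxidant and redox genes. These were sod1, ctt1, gpx1, tpx1, srx1, trx1, trx2, trr1, grx1 and gcs1 of the fission yeast Schizosaccharomyces pombe, found by their gene symbols in the platform's probe annotation. They were 10 of 2899 named S. pombe genes on the array, each with 1 probe set. All 10 lay above background on all 4 arrays, so all entered the test of 2857 genes. The cells were Atf1-OP, a strain overexpressing the bZIP transcription factor Atf1, and a wild-type strain that carried the empty vector. Each group had 2 Affymetrix arrays, which the titles call biological replicates. Nothing in the labels says that the replicates came from separate cultures, so p-values measure the spread between these arrays. The labels name no oxidant or other stress, and the sources used here do not name the promoter, the vector or the medium.

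Superoxide dismutase turns superoxide into hydrogen peroxide, and catalase, glutathione peroxidase and peroxiredoxin remove the peroxide. Peroxiredoxin is reduced by thioredoxin, which is recharged by thioredoxin reductase at the cost of NADPH, while glutaredoxins draw on glutathione. In fission yeast, peroxide acts through the MAP kinase Sty1 with Atf1, and through the bZIP factor Pap1. The genes ctt1, gpx1 and srx1 are known to respond through Sty1 and Atf1, and trr1, trx2 and tpx1 are known targets of Pap1, with ctt1 and srx1 under both.

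The 10 genes did not move as 1 block. After quantile normalization ctt1, gcs1 and sod1 rose in Atf1-OP cells by 1.40- to 1.70-fold, grx1 fell 1.29-fold, and 6 did not pass the test (limma, adjusted p under 0.05). Thus 3 of 10 rose and 1 of 10 fell, against 10.3% and 11.1% of all genes tested, or 21.4% in either direction. With so few genes, the counts are given beside those shares as a description. The median log2 difference of the 10 genes was 0.095, with a range of -0.37 to 0.77. Over all genes the median was -0.013 and the range -1.49 to 2.17. No member passed in a fit without the trend of variance on signal, in which 6.23% of all genes passed. Likewise no member passed without empty vector replicate 2, when 3.57% of all genes did.

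**Figure D1:**
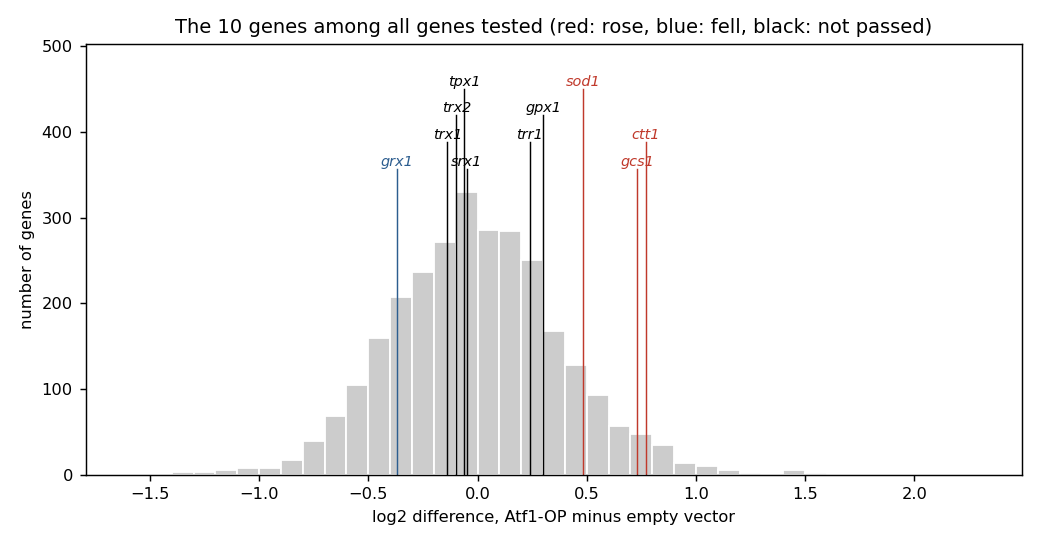
Histogram of the log2 differences (Atf1-OP minus empty vector, quantile normalized) of the 2857 genes tested, with the number of genes on the y axis and a line for each of the 10 genes. The genes ctt1 (0.77), gcs1 (0.73) and sod1 (0.48) lie on the right flank, grx1 (-0.37) on the left, and the other 6 between -0.14 and 0.30.

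The arrays differed as a whole between the groups. The median log2 signal of S. pombe probe sets was 6.96 and 6.97 on the Atf1-OP arrays and 6.80 and 6.70 on the empty vector arrays, so that 76.0% of all genes had a positive difference as deposited, with a median of 0.27. Spiked hybridization controls were lower in Atf1-OP on 27 of 27 probe sets, with means of 10.9 in Atf1-OP and 11.9 in the empty vector, and spiked poly-A transcripts were higher on 12 of 12 probe sets from mid-transcript, with means of 6.93 in Atf1-OP and 5.71 in the empty vector. S. pombe ribosomal RNA was lower on 7 of 7 probe sets, with a mean log2 difference of -0.66. These shifts ran with every result below, and their part in the results was not tested. The atf1 transcript had deposited log2 signals of 6.94 and 7.47 in Atf1-OP, against 6.01 and 6.19 in the empty vector, and passed (normalized difference 0.83, limma, adjusted p = 0.0262), though not in 3 of the 4 fits that left out 1 array. Whether its probe set reads the overexpressed copy is not known.

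**Figure D2:**
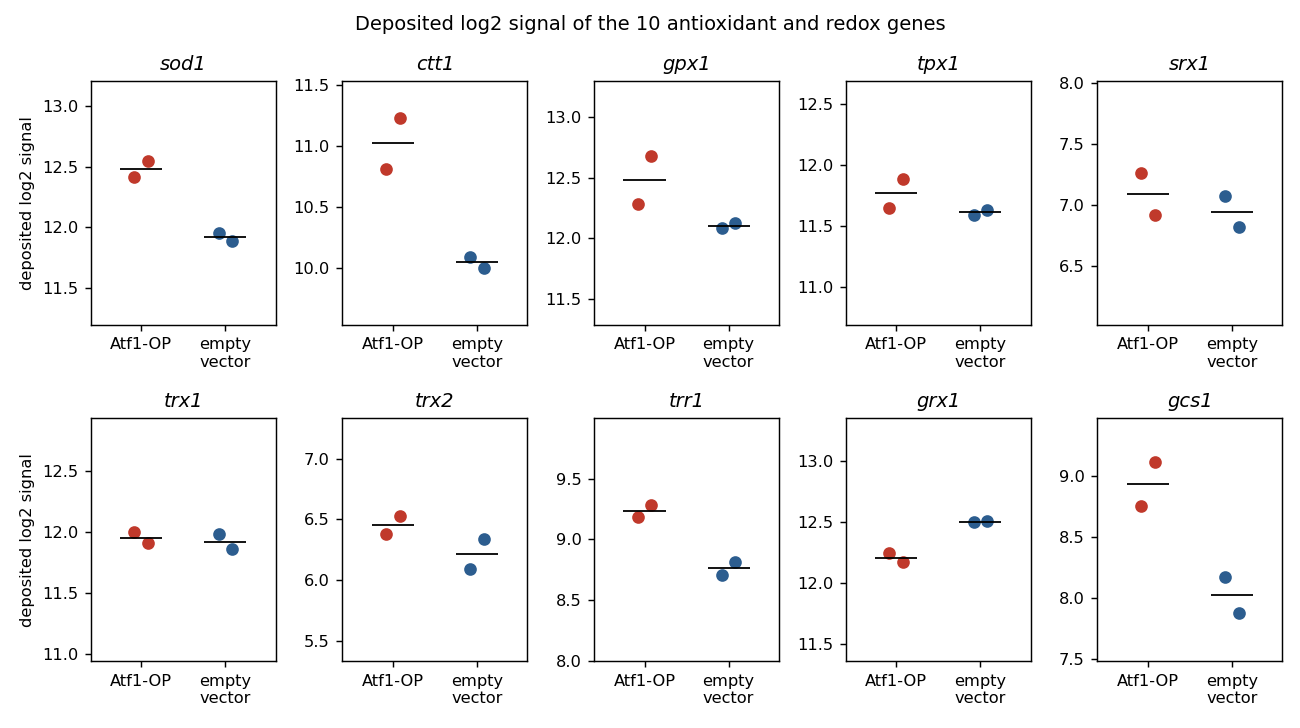
Deposited log2 signal (y axis, a span of 2 log2 units in every panel) of each of the 10 genes on the 2 Atf1-OP arrays (red, left) and the 2 empty vector arrays (blue, right), with a bar at each group's mean. The points of ctt1, gcs1 and sod1 are clear of each other between groups, grx1 is the 1 gene with both Atf1-OP points below, and trx1 and srx1 overlap.

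Of the genes for enzymes that act on superoxide and peroxide, ctt1 and sod1 rose and gpx1 and tpx1 did not pass. Of all genes tested, 10.3% rose. The catalase gene ctt1 (SPCC757.07C), whose product splits hydrogen peroxide into water and oxygen, had deposited log2 signals of 10.8 and 11.2 in Atf1-OP, against 10.1 and 9.998 in the empty vector. Both Atf1-OP arrays lay above both empty vector arrays, and the Atf1-OP arrays differed more from each other than the others did. Normalized, ctt1 averaged 10.9 ± 0.28 in Atf1-OP and 10.2 ± 0.054 in the empty vector (SD, n = 2 each). The log2 difference was 0.77 ± 0.12 (SE), a 1.70-fold rise with a 95% interval of 1.40 to 2.08 (limma, adjusted p = 0.00886). It exceeded the difference of 96.9% of all genes tested. The call was lost without empty vector replicate 2 (0.72, limma, adjusted p = 0.0584) and without the variance trend (limma, adjusted p = 0.0530).

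The copper-zinc superoxide dismutase gene sod1 (SPAC821.10C) had deposited signals of 12.4 and 12.5 in Atf1-OP, against 12.0 and 11.9 in the empty vector. The groups did not overlap, and replicate arrays lay close together in both. Normalized means were 12.5 ± 0.096 in Atf1-OP and 12.0 ± 0.042 in the empty vector (SD, n = 2 each). The difference of 0.48 ± 0.065 (SE), or 1.40-fold with an interval of 1.26 to 1.55, had the smallest adjusted p of the 10 genes (limma, adjusted p = 0.00551). It did not pass without empty vector replicate 2 (0.43, limma, adjusted p = 0.0624) or without the variance trend (limma, adjusted p = 0.0551).

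The gene gpx1 (SPBC32F12.03C) encodes a glutathione peroxidase family enzyme. Its deposited signals were 12.3 and 12.7 in Atf1-OP, against 12.1 and 12.1 in the empty vector. Both Atf1-OP arrays lay above the empty vector arrays, replicate 2 by more than replicate 1. The normalized difference of 0.30 ± 0.13 (SE) did not pass (limma, adjusted p = 0.128), and its 95% interval ran from 1.002- to 1.51-fold. This value rested on 1 array: it was 0.55 without Atf1-OP replicate 1 and 0.074 without Atf1-OP replicate 2. It passed in the deposited values, at 0.38 (limma, adjusted p = 0.0447). After a correction for gene length it was 0.39 and passed (limma, adjusted p = 0.0369). With median centring, at 0.16, it did not pass (limma, adjusted p = 0.415).

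The 2-Cys peroxiredoxin gene tpx1 (SPCC576.03C), whose product removes low levels of peroxide and relays the signal to Pap1 and Sty1, had deposited signals of 11.6 and 11.9 in Atf1-OP, against 11.6 and 11.6 in the empty vector. The normalized values overlapped, with means of 11.7 ± 0.15 in Atf1-OP and 11.7 ± 0.021 in the empty vector (SD, n = 2 each). The difference of -0.061 ± 0.079 (SE) did not pass (limma, adjusted p = 0.603), and the 95% interval of 0.84- to 1.09-fold excluded a rise of the size seen for ctt1, sod1 or gcs1 under this scaling. The tpx1 value was -0.17 without Atf1-OP replicate 2 and 0.056 without Atf1-OP replicate 1. As deposited, with all 4 arrays, it was 0.15 and did not pass.

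Sulfiredoxin, encoded by srx1 (SPBC106.02C), repairs peroxiredoxin that has been overoxidised. Its deposited signals were 7.26 and 6.91 in Atf1-OP, against 7.07 and 6.82 in the empty vector, so the groups overlapped. The difference of -0.050 ± 0.16 (SE) did not pass (limma, adjusted p = 0.843). The 95% interval of 0.75- to 1.25-fold was wide and left room for change in either direction.

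The thioredoxin genes gave no call. The cytosolic thioredoxin gene trx1 (SPAC7D4.07C) had deposited signals of 12.0 and 11.9 in Atf1-OP, against 12.0 and 11.9 in the empty vector. After normalization both Atf1-OP arrays lay below the empty vector arrays, and the difference of -0.14 ± 0.065 (SE) did not pass (limma, adjusted p = 0.163; interval 0.82- to 1.01-fold). The mitochondrial thioredoxin gene trx2 (SPBC12D12.07C) had deposited signals of 6.38 and 6.53 in Atf1-OP, against 6.09 and 6.34 in the empty vector. Its normalized difference of -0.097 ± 0.16 (SE) did not pass (limma, adjusted p = 0.703; interval 0.72- to 1.22-fold). As deposited, both differences were positive, at 0.032 for trx1 and 0.24 for trx2, each below the median of 0.27 over all genes.

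Thioredoxin reductase, encoded by trr1 (SPBC3F6.03), recharges thioredoxin with electrons from NADPH. Its deposited signals were 9.19 and 9.28 in Atf1-OP, against 8.71 and 8.82 in the empty vector, with no overlap between groups. The normalized difference of 0.24 ± 0.087 (SE) was 1.18-fold with an interval of 1.027 to 1.36 and did not pass (limma, adjusted p = 0.0871). It passed in the deposited values, at 0.47 (limma, adjusted p = 0.00803), where 31.6% of all genes passed upward.

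The glutaredoxin gene grx1 (SPAC4F10.20), encoding an enzyme that reduces disulfides with glutathione, went the other way. Its deposited signals were 12.2 and 12.2 in Atf1-OP, against 12.5 and 12.5 in the empty vector. It was the 1 member with both Atf1-OP arrays below the empty vector arrays in the deposited values. Normalized means were 12.1 ± 0.089 in Atf1-OP and 12.5 in the empty vector, where quantile normalization gave both arrays the same value and so no SD. The difference of -0.37 ± 0.062 (SE), a 1.29-fold fall, passed (limma, adjusted p = 0.0100). It was lost without empty vector replicate 1 (-0.35, limma, adjusted p = 0.0855), without empty vector replicate 2 (-0.35, limma, adjusted p = 0.0966) and without the variance trend (limma, adjusted p = 0.0800).

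Glutathione itself is built in a pair of steps, and gcs1 (SPAC22F3.10C) encodes glutamate-cysteine ligase, the enzyme of the first and rate-limiting one. Deposited signals were 8.75 and 9.11 in Atf1-OP, against 8.17 and 7.88 in the empty vector. The groups did not overlap, with a similar spread in both. Normalized means were 8.83 ± 0.19 in Atf1-OP and 8.10 ± 0.17 in the empty vector (SD, n = 2 each). The difference of 0.73 ± 0.13 (SE), or 1.66-fold with an interval of 1.35 to 2.03, passed (limma, adjusted p = 0.0104). It did not pass without Atf1-OP replicate 2 (0.60, limma, adjusted p = 0.0610), without empty vector replicate 2 (0.61, limma, adjusted p = 0.0855) or without the variance trend (limma, adjusted p = 0.0529).

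**Figure D3:**
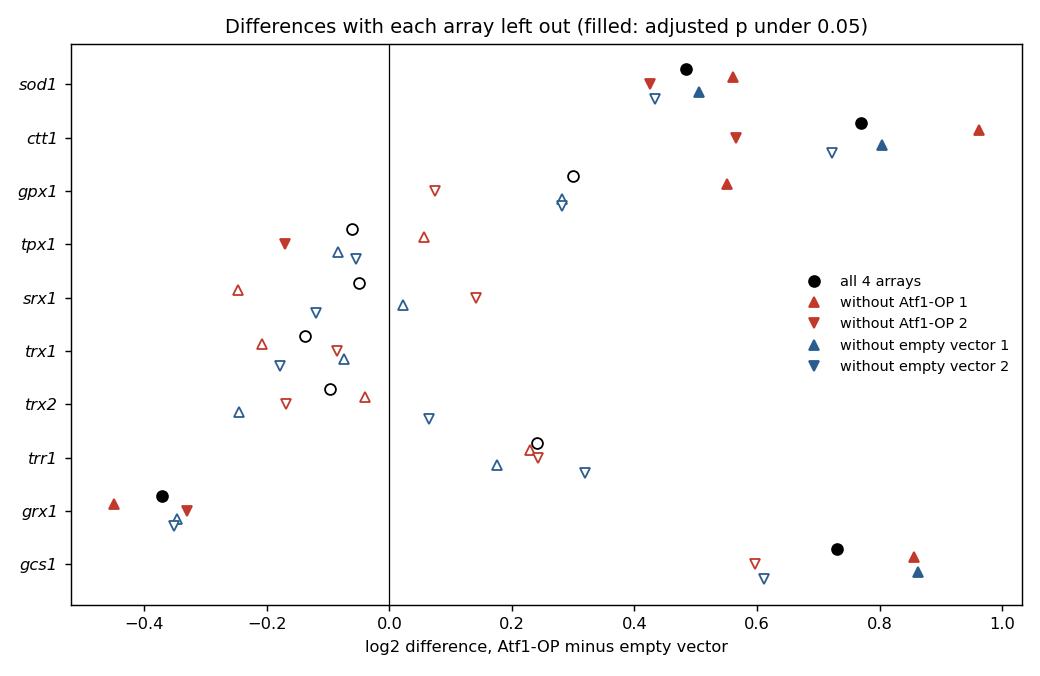
Log2 difference (x axis, Atf1-OP minus empty vector) of each of the 10 genes with all 4 arrays (black) and with each array left out in turn (red for an Atf1-OP array, blue for an empty vector array), filled where the adjusted p was under 0.05. The values of ctt1 stay between 0.57 and 0.96, of gcs1 between 0.60 and 0.86, of sod1 between 0.43 and 0.56 and of grx1 between -0.45 and -0.33, while tpx1, srx1 and trx2 cross 0. With an array left out, the spread behind the adjusted p came from the complete group alone.

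How the arrays were put on 1 scale decided the sign of several small differences. In the deposited values 9 of the 10 genes had positive differences, with a median of 0.31 beside 0.27 for all genes, and 5 rose and 1 fell, against 31.6% and 4.06% of all genes. The additional calls were gpx1 and trr1. The signs of tpx1, srx1, trx1 and trx2 turned positive, whereas grx1 stayed negative at -0.30 (limma, adjusted p under 0.05 in all 3 scalings). With median centring ctt1, gcs1 and sod1 again rose and grx1 fell, and trx2 alone changed sign, to 0.022. There sod1 passed narrowly, at 0.34 (limma, adjusted p = 0.0474). Median centring called 15.9% of all genes higher and 12% lower, 27.9% in all. Groups did not overlap for 5 genes higher and 2 lower after quantile normalization, against 31.9% and 34.4% of all genes (66.3% in all). As deposited these were 7 and 1, against 60.1% and 14% of all genes (74.1% in all), and 35.7% of all genes passed the test in either direction. In bulk RNA from a culture, fewer cells with a transcript and less transcript per cell cannot be told apart.

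**Figure D4:**
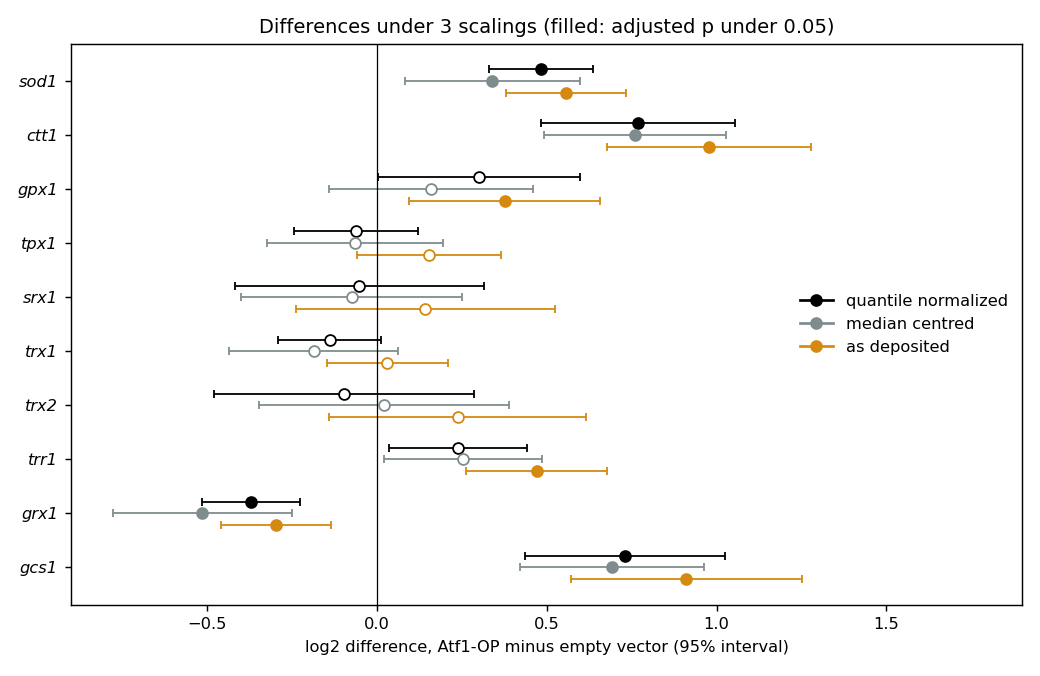
Log2 difference (x axis, Atf1-OP minus empty vector, with 95% interval from limma) of each of the 10 genes under quantile normalization (black), median centring (grey) and as deposited (orange), filled where the adjusted p was under 0.05. The genes ctt1, gcs1, sod1 and grx1 are filled in all 3, gpx1 and trr1 as deposited, and the deposited values lie to the right of the others.

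Changes in the ratio of 2 probe sets on the same array do not depend on a constant added to that array. A shift between arrays that varies with signal would still enter such a ratio. For 6 pairs of working partners, chosen by role after values were seen, the log2 ratio of deposited signals was compared between groups. Only its change can be read, since probe sets differ in brightness, and the changes are given as a description with no test. The largest change was in sod1 over ccs1, which encodes the copper chaperone of superoxide dismutase. That log2 ratio was 4.97 and 4.82 in Atf1-OP, against 3.84 and 3.73 in the empty vector, a change of 1.11, or 2.15-fold. The ratio of gcs1 to gsa1, which encodes glutathione synthetase, the enzyme of the following step, was 1.25 and 1.497 in Atf1-OP, against 0.72 and 0.38 in the empty vector, a change of 0.82. The ratio of grx1 to pgr1, the glutathione reductase gene, changed by -0.50, with 4.73 and 4.52 in Atf1-OP against 5.13 and 5.11 in the empty vector.

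Within the thioredoxin system the ratios moved less. The log2 ratio of trr1 to trx1 was -2.81 and -2.63 in Atf1-OP, against -3.27 and -3.05 in the empty vector, a change of 0.44. That of trr1 to trx2 changed by 0.23, with 2.81 and 2.75 in Atf1-OP against 2.62 and 2.47 in the empty vector. The ratio of tpx1 to srx1, peroxiredoxin and its repair enzyme, was 4.38 and 4.97 in Atf1-OP, against 4.52 and 4.81 in the empty vector. Its groups overlapped and the change was 0.011.

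The genes around these enzymes were taken from 6 lists by role with 47 distinct names, of which 36 were measured. The array's probe set annotated as sod2 matched the sodium/proton antiporter gene nhe1, which once bore that name, so mitochondrial superoxide dismutase was not analysed here. Among the 36 genes 8 rose, 3 fell and 25 did not pass, against 10.3% and 11.1% of all genes. The 8 include atf1, the overexpressed gene itself. The median difference was 0.18, beside -0.013 for all genes. In the deposited values 19 rose and 3 fell, against 31.6% and 4.06% of all genes. Without the variance trend pmd1 rose and ccs1, grx2 and prr1 fell, and without empty vector replicate 1 or 2 at most 1 passed in each direction.

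The copper chaperone gene ccs1 was the 1 measured gene of the superoxide and peroxide list, and it fell. Its deposited signals were 7.45 and 7.73 in Atf1-OP, against 8.12 and 8.16 in the empty vector, with no overlap, and the normalized difference was -0.70 ± 0.12 (SE; limma, adjusted p = 0.0100). It lost its call without either empty vector array. The sod1 and ccs1 transcripts thus had differences of opposite sign, 0.48 and -0.70, and this held in the deposited values, at 0.56 and -0.55.

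Of 5 further thioredoxin and glutaredoxin genes, 2 rose, 1 fell and 2 did not pass, against 10.3% of all genes higher and 11.1% lower. The glutaredoxin gene grx2 had deposited signals of 8.18 and 7.97 in Atf1-OP, against 8.58 and 8.62 in the empty vector, and fell by 0.68 on the log2 scale (limma, adjusted p = 0.00871), a call lost without either empty vector array. Like grx1, it encodes a dithiol glutaredoxin. The monothiol glutaredoxin gene grx4, which acts in iron sensing, rose by 0.38 (limma, adjusted p = 0.0235) and the monothiol gene grx5, which acts in mitochondrial iron-sulfur cluster assembly, by 0.63 (limma, adjusted p = 0.0495). The grx5 call was lost whenever any 1 of the 4 arrays was left out, and the grx4 call in 3 of those 4 fits. With all arrays kept, grx5 also lost its call when the filter on dim probe sets was dropped (limma, adjusted p = 0.0514). The other monothiol gene, grx3, stood at -0.017 (limma, adjusted p = 0.925), positive as deposited, and the thioredoxin-like gene txl1 at 0.42 (limma, adjusted p = 0.152). The txl1 value was 0.72 without Atf1-OP replicate 1 and 0.15 without Atf1-OP replicate 2.

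Among 9 measured glutathione genes, with a median of 0.058, hmt1 was the 1 called, against 10.3% of all genes higher and 11.1% lower. It encodes a vacuolar ABC transporter of heavy metal tolerance and rose by 0.29 on the log2 scale (limma, adjusted p = 0.0317), a call lost without either empty vector array. The sulfide-quinone oxidoreductase gene hmt2 stood at 0.11 (limma, adjusted p = 0.278) and the glutathione transferase gene gst1 at 0.31 (limma, adjusted p = 0.427). The sign of gst1 rested on 1 array, with -0.035 without empty vector replicate 1 and 0.69 without empty vector replicate 2. The gene of the other step of glutathione synthesis, gsa1, had deposited signals of 7.503 and 7.62 in Atf1-OP, against 7.44 and 7.50 in the empty vector, and a difference of -0.061 ± 0.11 (SE; limma, adjusted p = 0.720). Glutathione reductase, pgr1, stood at 0.058 (limma, adjusted p = 0.738). Both signs depended on the scaling.

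Of 3 measured genes listed under NADPH supply, 2 rose, against 10.3% of all genes. Of the 2, tal1 encodes transaldolase of the pentose phosphate pathway, which does not itself make NADPH. Its deposited signals were 11.1 and 11.6 in Atf1-OP, against 10.6 and 10.6 in the empty vector. The normalized difference was 0.55 ± 0.15 (SE; limma, adjusted p = 0.0353). That difference was 0.80 without Atf1-OP replicate 1 and 0.29 without Atf1-OP replicate 2. The NADP-dependent isocitrate dehydrogenase gene idp1 differed by 0.28 ± 0.066 (SE; limma, adjusted p = 0.0227), with equal normalized values on both empty vector arrays, and did not pass with median centring (0.27, limma, adjusted p = 0.0587). The glucose 6-phosphate dehydrogenase gene zwf1 stood at 0.19 (limma, adjusted p = 0.122). Without either empty vector array none of them passed.

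Of 13 measured regulators of the peroxide response, 1 rose, 1 fell and 11 did not pass. Of all genes, 10.3% were called higher and 11.1% lower. The 1 that rose was atf1, the overexpressed gene itself. The atf1 call was lost without Atf1-OP replicate 2, without either empty vector array and without the variance trend (limma, adjusted p = 0.0687). The one that fell was prr1, encoding a response regulator that works with Pap1 and is needed for ctt1 induction. Its deposited signals were 9.46 and 9.54 in Atf1-OP, against 9.90 and 9.89 in the empty vector. The difference was -0.61 ± 0.072 (SE; limma, adjusted p = 0.00376), a 1.53-fold fall, and -0.39 as deposited. It lost its call without empty vector replicate 1. The pap1 transcript had deposited signals of 8.69 and 8.75 in Atf1-OP, against 8.36 and 8.26 in the empty vector, and its difference of 0.23 ± 0.087 (SE) did not pass (limma, adjusted p = 0.0935). The response regulator gene mcs4 stood at 0.58 (limma, adjusted p = 0.0601) and the peroxide-sensing histidine kinase gene mak2 at 0.55 (limma, adjusted p = 0.0755). The mak2 value was 0.86 without empty vector replicate 1 and 0.24 without empty vector replicate 2. In the deposited values 7 regulators rose and 1 fell, against 31.6% and 4.06% of all genes, and with median centring 4 rose and 1 fell, against 15.9% and 12%.

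Of 5 transport and quinone genes linked to Pap1, pmd1 and obr1 rose and 3 others did not pass, against 10.3% of all genes higher. The median was 0.47, with 4 differences positive and 1 negative. The ABC transporter gene pmd1 had deposited signals of 6.93 and 7.31 in Atf1-OP, against 5.99 and 5.88 in the empty vector, and rose by 0.89 ± 0.16 (SE; limma, adjusted p = 0.0128). The flavodoxin-like gene obr1 rose by 0.47 ± 0.10 (SE; limma, adjusted p = 0.0205), a call lost without the variance trend (limma, adjusted p = 0.0770). Drug transporter genes caf5, at 0.67 (limma, adjusted p = 0.0635), and bfr1, at 0.35 (limma, adjusted p = 0.0543), did not pass. The pmd1 and obr1 calls were lost in 3 of the 4 fits that left out 1 array.

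**Figure D5:**
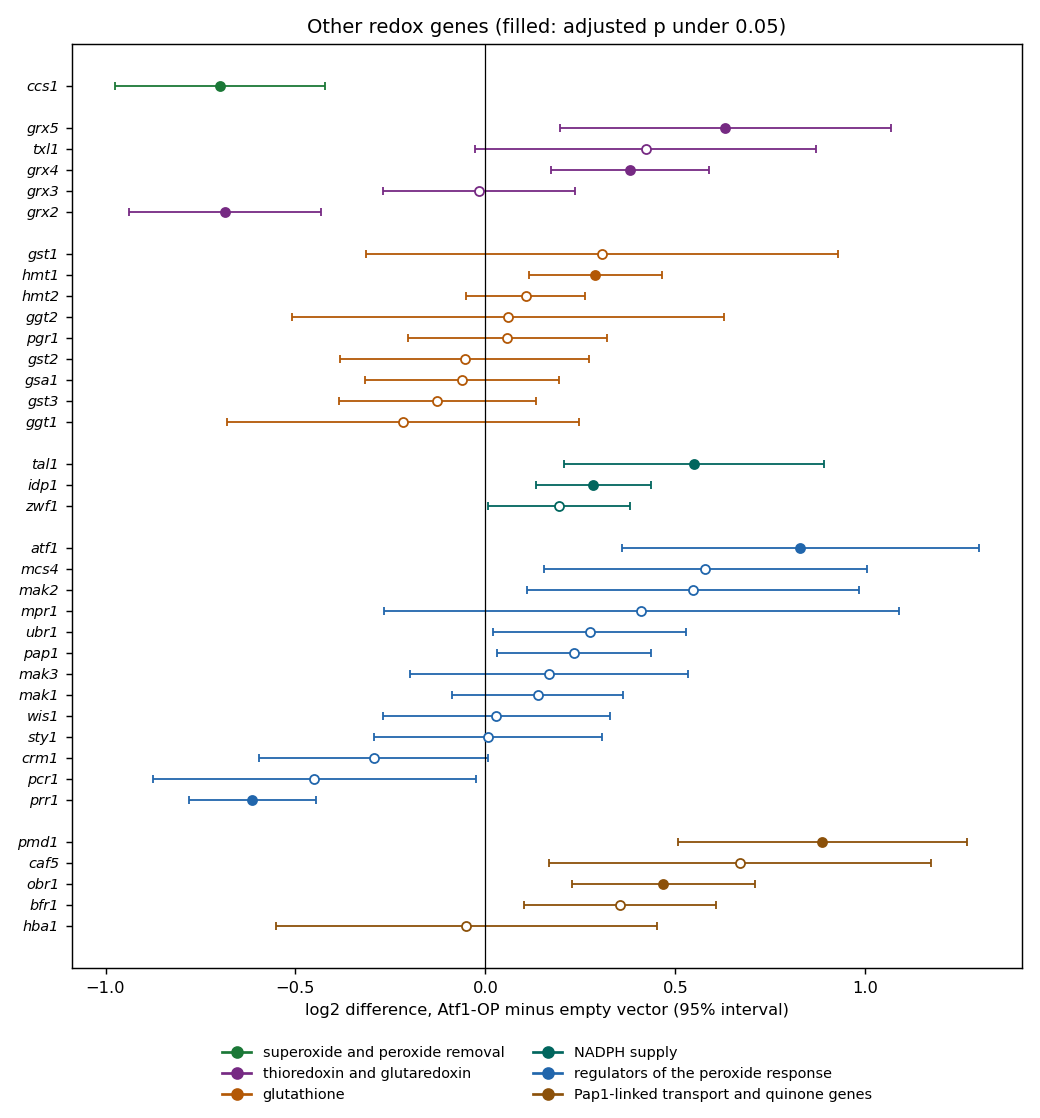
Log2 difference (x axis, Atf1-OP minus empty vector, quantile normalized, with 95% interval from limma) of the 36 other redox genes measured, coloured by list and filled where the adjusted p was under 0.05. The genes ccs1, grx2 and prr1 are filled on the left of 0, and pmd1, atf1, grx5, tal1, obr1, grx4, hmt1 and idp1 on the right.

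Gene length went with the differences to some extent. The longest members, gcs1 at 2514 bp and ctt1 at 2180 bp, had the largest rises, but sod1, at 763 bp, also rose. Across the 10 genes the difference correlated with log10 length at Pearson r = 0.69, and with length at Spearman rho = 0.43. Across all 2857 genes these were 0.15 and 0.15. They are correlations across genes of the same 4 arrays, given as a description. After a loess correction for length, added after the data were seen, ctt1 (0.75), gcs1 (0.70), sod1 (0.57) and grx1 (-0.29) still passed. The gene gpx1 (0.39) also passed there, where 26.8% of all genes did, against 21.4% in the main setting.

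Patterns over 4 arrays are shared by many genes. The member with the smallest p was sod1, and the genes nearest to it over the 4 arrays, by Euclidean distance between values centred on each gene's mean, were rsc9, a subunit gene of the RSC chromatin remodelling complex, ivn1 and erg5, a sterol synthesis gene. Their distances were 0.021, 0.024 and 0.029 log2 units, and their differences between the groups 0.49, 0.49 and 0.47. A Pearson r of at least 0.99 with sod1 over the 4 arrays was found for 82 of the 2856 other genes.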

How the data were processed

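Total RNA was labelled with biotin for Affymetrix arrays, per the labels' protocols. The deposited table held 10928 probe sets with 1 log2 value per array, called log2 from its range. How the authors summarised and normalized these log2 values is not given in the sources used here. Probe sets were named through the platform annotation and the RefSeq gene table of ASM294v3 (2914 by ID, 3 by symbol), and the brightest probe set was kept per gene. Array medians differed by 0.27, above the tolerance of 0.1, so S. pombe probe sets were quantile normalized. Background was set per array at percentile 95 of the 2593 probe sets of S. cerevisiae, and 42 genes not above it on at least 2 arrays were removed. The test was limma's (version 3.58.1, R 4.3.3), with lmFit and eBayes with trend, Benjamini-Hochberg adjustment over all genes and an adjusted p under 0.05. It was also run on simulated data in which the SDs were shuffled over genes. That run could not test the variance trend, and no conclusion is drawn from it. Precision is limited by 2 arrays per group. The members, lists and tests were chosen with earlier results of these data known. The text names all members, atf1, pap1, prr1, each other redox gene that passed and the 2 others of each list with the smallest p. Beyond that rule gsa1 and pgr1 were named after their values were seen, as partners of members. Figures used matplotlib 3.10.9 and Python 3.11.15. Promoter and protein sequences were not used here.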

Additional observations from a re-analysis of the deposited data

Results flagged for a closer look

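Spiked poly-A control transcripts, which take no part in the comparison of the 10 genes, read higher in Atf1-OP than in the empty vector. On probe sets from mid-transcript the class means were 6.58 and 7.28 in Atf1-OP, against 5.74 and 5.68 in the empty vector, a mean log2 difference of 1.22 over 12 probe sets. At the 5′ end the means were 4.45 and 4.78 in Atf1-OP, against 3.15 and 2.97 in the empty vector, a difference of 1.56. Of these 12 probe sets, 6 were at background on both empty vector arrays. With empty vector values below background raised to it, and Atf1-OP values left as read, the difference was 1.27. At the 3′ end the difference was 0.34. No group had enough arrays for a test of single arrays that stand apart.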

How the results depend on the processing

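The alternatives were 2 other scalings, 2 other filters, a fit without trend, a replicate block, another probe set rule and leaving out each array, and a length correction added after the data were seen. With the other filters and the mean of probe sets, 3 members rose and 1 fell, as in the main setting. These settings could not change a member's values, since each had 1 probe set and lay above background on all arrays. Only the adjusted p could move. In the deposited values 5 members, 19 other redox genes and 903 of all genes rose and 116 of all genes fell. There gpx1 (0.38) and trr1 (0.47) passed, and tpx1 (0.15), srx1 (0.14), trx1 (0.032) and trx2 (0.24) changed sign. With median centring 454 of all genes rose and trx2 was 0.022. Without trend 0 members rose and 0 fell (4 of 10 had an unadjusted p under 0.05), 1 other redox gene rose, and 101 of all genes rose and 77 fell; the members that lost their call there, sod1 (0.48), ctt1 (0.77), gcs1 (0.73) and grx1 (-0.37), kept their values. With the length correction gpx1 was 0.39 and passed, and tpx1 (0.023) and srx1 (0.036) changed sign. The cause was not tested for these settings.

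Same-numbered replicates did not deviate together (correlation of deviations across genes 0.038), so the number was taken as a name only. With the replicate block 13 other redox genes rose and gpx1 passed at 0.30, while members that rose numbered 4 and 29.7% of all genes passed, against 21.4% in the main setting. With each array left out in turn, 0 to 4 members rose and 0 to 2 fell, 0 to 11 other redox genes rose and 0 to 3 fell, and 68 to 291 of all genes rose and 34 to 345 fell. Differences then ranged over 0.43 to 0.56 for sod1, 0.57 to 0.96 for ctt1, 0.074 to 0.55 for gpx1, -0.17 to 0.056 for tpx1, -0.25 to 0.14 for srx1, -0.21 to -0.075 for trx1, -0.25 to 0.065 for trx2, 0.18 to 0.32 for trr1, -0.45 to -0.33 for grx1 and 0.60 to 0.86 for gcs1. Where 1 array of a group was left, its spread was taken from the other group.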
